A study of Mus musculus with 12 samples.

Results

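The genes described here are 36 genes of glycolysis and of the response to low oxygen, read in mammospheres of mice that lack p66Shc (KO) and of wild-type mice (WT) at 12 and at 2 months. They are the genes of the deposited expression table whose name is on a list of glycolytic enzymes, glucose and lactate carriers, hypoxia-inducible factor (HIF) subunits, their hydroxylases and HIF targets. All 36 names were found among the 23406 genes of the table. They comprise 16 core glycolytic enzymes, 3 enzymes that switch glycolytic flux, 3 carriers, 2 HIF subunits, 2 HIF prolyl hydroxylases and 10 HIF targets outside glycolysis.

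Glycolysis splits glucose into pyruvate, and in cells with little oxygen much of that pyruvate is reduced to lactate and exported. The HIF transcription factors sense oxygen through prolyl hydroxylases, which mark the HIF alpha subunits for degradation while oxygen is present. When oxygen falls the alpha subunits are stable, pair with ARNT and bind short DNA sites with the core ACGTG or GCGTG near genes for glucose uptake, glycolysis, lactate export, blood vessel growth and mitochondrial turnover. The adaptor isoform p66Shc, the longest product of Shc1, is known for its part in oxidative metabolism and ageing. Hydroxylation acts on HIF protein, which was not measured here.

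Mammospheres are floating spheres that cells of the mammary gland form in culture without attachment. The 12 libraries hold total RNA of passage 2 spheres from C57BL/6J mice and make 4 groups of 3, the 12-month p66Shc knock-out (12-month KO), the 2-month knock-out (2-month KO), 12-month wild type (12-month WT) and 2-month wild type (2-month WT). By its title the study is about p66Shc in ageing mammary stem cells. The labels name no other allele, no agent and no conditional driver for the knock-out. They do not tie a library to an animal or culture, so each p-value measures the spread between these libraries, which may be technical. The spheres are bulk samples after passaging, in which fewer cells of a type and less RNA per cell cannot be told apart.

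The deposited values are CPM, reads scaled by the authors to a common library total, and the libraries held between 31845169 and 109079737 reads. A count of 3 reads stood for 0.029 to 0.0859 CPM, covering counting error only. Shc1, the gene that p66Shc belongs to, had 170, 162 and 178 CPM in the 12-month KO libraries, 208, 209 and 208 CPM in the 2-month KO libraries, 219.6, 209 and 203 CPM in the 12-month WT libraries and 266, 311 and 309.7 CPM in the 2-month WT libraries. Its log2 difference between KO and WT was -0.31 at 12 months and -0.50 at 2 months (limma, adjusted p = 0.000593 and 0.000133), but the values sum all Shc1 isoforms, so they check the genotype labels only in part. The deposited columns were not scaled in a single run, except that both KO groups shared one, so the calls that a rescaling over all 12 libraries changed are listed after the counts of each comparison. Of the marker lists, 7 luminal epithelial genes (keratins and junction proteins) summed to 3350 to 3480 CPM in 12-month WT against 279 to 470 CPM over the other 9 libraries, and no marker of that list was at 0. The 6 fibroblast genes, collagens among them, summed to 6570 to 11000 CPM over the 12 libraries. In 12-month KO, 4 endothelial markers summed to 205 to 217 CPM and 4 adipocyte markers to 303 to 312 CPM, while the 3 remaining groups had 55 to 95.3 CPM of the endothelial and 128 to 182 CPM of the adipocyte list. The 6 leukocyte markers summed to 221 to 409 CPM in 12-month KO and 687 to 1190 CPM elsewhere, with Cd3e at 0 in each of those other groups. The 9 skeletal muscle markers summed to 825 to 1560 CPM in 12-month KO, 273 to 322 in 2-month KO, 187 to 208 in 12-month WT and 961 to 1130 in 2-month WT, none at 0. The 6 basal epithelial markers summed to 205 to 216 CPM in 12-month WT and 43.7 to 68.4 CPM elsewhere, and the 2 erythroid markers in the table to at most 0.382 CPM, with Hba-a1 at 0. The part of these other cell types in the results below was not tested. Of single libraries, 2-month WT replicate 1 was the lowest of its group for 22 of the 35 genes tested, and 12-month KO replicate 1 for 20. The highest of its group was 2-month WT replicate 2 for 23 genes and 12-month KO replicate 3 for 22. Over 13149 genes, each library's deviation from the others of its group was set against transcript GC content. The Spearman rho was -0.707 for 2-month WT replicate 1, 0.698 for 2-month WT replicate 2 and -0.511 to 0.543 for the rest. Of all single libraries left out, 2-month WT replicate 1 left the fewest member values unchanged (158). The calls that change without that library are listed after the counts of each comparison.

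Most of these genes were higher at 12 than at 2 months in KO spheres. Of the 35 genes tested 29 changed, against 67% of all genes, and of these 26 rose and 3 fell (limma, Benjamini-Hochberg adjusted p under 0.05), where 32.9% of all 13961 genes tested rose and 34.2% fell. Their median log2 fold change was 0.51, against -0.02 over all genes. The genes that rose included both HIF subunits, both HIF hydroxylases, 9 of the 10 HIF targets and 9 of the 15 core enzymes tested. Pfkm, Eno2 and Pfkfb4 fell, and Gpi1, Pfkl, Aldoa, Pkm, Slc2a1 and Car9 did not pass the test. The 12-month and 2-month KO libraries did not overlap for 28 of the 35 genes, against 72.9% of all genes. This is the comparison between groups that the authors scaled together, and its split of 26 and 3 was the same after rescaling over all 12 libraries. The calls of 2 genes rested on single libraries. The adjusted p of Gapdh lay between 0.0525 and 0.087 when any of 4 KO libraries was left out (replicates 2 and 3 of either age), and that of Pgam1 between 0.073 and 0.0932 without 12-month replicate 1, 12-month replicate 3 or 2-month replicate 1.

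In WT spheres the same step in age had no common direction across these genes. Of the 35 genes tested 21 changed, against 58% of all genes. Of these 11 rose and 10 fell, where 22.3% and 35.6% of all genes did, and the median log2 fold change was 0.00 (all genes, -0.08). Over all genes the split was 3120 higher and 4971 lower, while edgeR on recovered reads gave 3898 and 3766 over all genes and 14 and 8 among these 35. The largest rises were those of Aldoc at 2.59 log2, Ndrg1 at 1.45, Car9 at 1.34 and Adm at 1.02. Hif1a, Bnip3, Ldha, Slc2a3, Slc16a3 and P4ha1, 6 genes that rose in KO, fell in WT. The libraries of the ages did not overlap in WT for 22 of the 35 genes, against 62.3% of all genes. The calls of 3 genes depended on which libraries were fitted. The rise of Ddit4 (adjusted p = 0.0499) and of P4ha2 (adjusted p = 0.0423) were each lost when any of 7 libraries was left out, with adjusted p up to 0.193 and 0.15, and the fall of Slc16a3 was lost without 12-month WT replicate 2, 2-month WT replicate 2 or 2-month WT replicate 3 (adjusted p 0.0562 to 0.0762).

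The difference between the age effects, KO minus WT, passed its own test for 25 of the 35 genes, against 57.7% of all genes. It was positive for 23 and negative for 2, Aldoc and Car9, where 31.4% and 26.2% of all genes were. The median difference was 0.50 log2 over these genes and 0.02 over all genes. It was largest for Bnip3 (2.31 log2, adjusted p = 1.24e-08), Adm (2.04 log2, adjusted p = 5.83e-08), Slc16a3 (1.69 log2, adjusted p = 6.25e-05) and Hk2 (1.54 log2, adjusted p = 1.33e-08). Gpi1 passed narrowly (adjusted p = 0.0489) and lost its call when any of 10 libraries was left out, and Tpi1 and Pgam1 lost theirs without any of 3 libraries and without 2-month KO replicate 1 (adjusted p up to 0.055 and 0.0529).

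**Figure D1:**
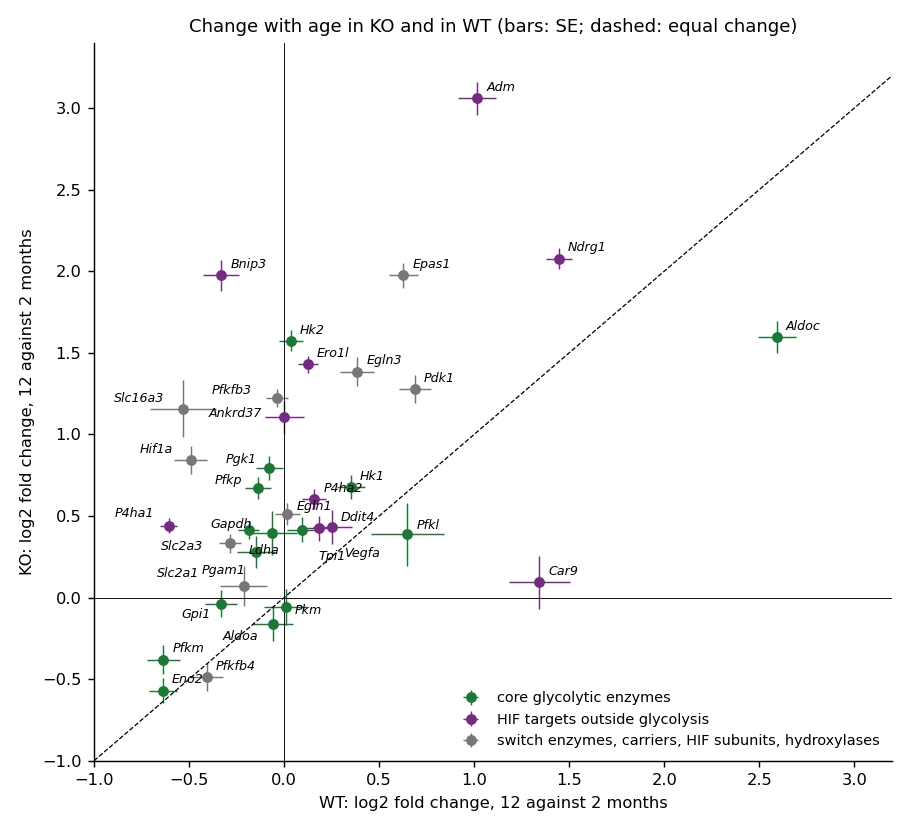
Log2 fold change from 2 to 12 months of the 35 genes tested, in KO on the vertical axis and in WT on the horizontal axis. Each point is a gene, bars are the standard error of the fit, and the dashed line marks equal change. Most points lie above the line, with Aldoc and Car9 well below it and Adm, Bnip3, Hk2 and Epas1 far above.

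At 12 months KO and WT differed for 24 of the 35 genes, against 70.2% of all genes, so the share that differed was near that of the table as a whole. Of these, 19 were higher and 5 lower in KO than in WT, where 31.3% and 38.9% of all genes were. The median log2 difference was 0.32 (all genes, -0.07). Bnip3, Adm, Epas1, Hif1a and Slc16a3 were between 2.45 and 3.18 times as high in KO, Hk2 2.28 times and Ero1l 2.07 times. The higher genes were Hk2, Pfkp, Pgk1, Pgam1, Ldha, Pfkfb3, Slc2a3, Slc16a3, Hif1a, Epas1, Egln1, Egln3, Bnip3, Adm, Ankrd37, Ndrg1, Ero1l, P4ha1 and P4ha2. The 5 lower genes were Car9, Aldoc, Pfkl, Aldoa and Pfkm. Pfkm missed the threshold without 12-month WT replicate 3, with quantile scaling and with a correction for GC content (adjusted p 0.05 to 0.146). Aldoa missed it with the GC correction (adjusted p = 0.0776). Of the higher genes, Ldha and P4ha2 missed it with quantile scaling (adjusted p = 0.0759 and 0.0528). KO and WT libraries did not overlap for 25 of the 35 genes, against 73.9% of all genes.

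At 2 months no gene of the 35 was higher in KO and 18 were lower, against 1.86% and 14.2% of all genes (16.1% in either direction). At an unadjusted p under 0.05, 25 were lower and 0 higher, and 33 of the 35 log2 differences were negative, with a median of -0.28 (all genes, -0.09). The calls over all genes leaned lower as well. All genes were not counted at an unadjusted p or by sign, so these 2 counts have no matching background. The lower genes were Hk1, Hk2, Gpi1, Pfkp, Pfkm, Aldoc, Tpi1, Pfkfb3, Pdk1, Slc2a1, Egln3, Bnip3, Adm, Vegfa, Ankrd37, Ndrg1, Ero1l and P4ha1. All differences lay within a narrow range, from -0.63 log2 for Bnip3 to 0.12 for Epas1. The KO and WT libraries did not overlap for 21 of the 35 genes, against 32.1% of all genes. This count depends on the scaling of the 2-month WT columns, which matched no run that could be rebuilt. After rescaling over all 12 libraries 7 of the 35 were lower and 0 higher, while over all genes the split moved to 426 higher and 1032 lower from the deposited scale's 259 and 1986. On reads recovered from the values, edgeR called 5 lower and DESeq2 9 lower, with 0 higher in each. The count ran from 9 without 2-month KO replicate 1, 10 without 2-month WT replicate 2 and 11 without 2-month WT replicate 3 up to 23 without 2-month WT replicate 1. Bnip3, Pfkm, Pdk1 and Hk2 were called lower under all 23 alternatives run.

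Leaving out 2-month WT replicate 1 changed the following calls. With age in WT, Slc2a1 fell (-0.38 log2, adjusted p = 0.00255), Pfkp fell (-0.18 log2, adjusted p = 0.0339) and Ero1l rose (0.15 log2, adjusted p = 0.0404), while P4ha2 and Ddit4 no longer passed (0.11 log2, adjusted p = 0.15 and 0.24 log2, adjusted p = 0.0854). With age in KO, Pfkl rose (0.39 log2, adjusted p = 0.0159). At 2 months Pfkl, Aldoa, Ldha, Slc16a3, Egln1 and P4ha2 were also lower in KO, with adjusted p from 0.00212 to 0.0363, and Aldoc was not called (-0.32 log2, adjusted p = 0.0569). The difference of the age effects also passed for Slc2a1 (0.45 log2, adjusted p = 0.0061), Gapdh (0.58 log2, adjusted p = 0.012), Vegfa (0.31 log2, adjusted p = 0.0154) and Pfkm (0.33 log2, adjusted p = 0.0222).

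Rescaling over all 12 libraries changed no call with age in KO or at 12 months. With age in WT, Ero1l and Vegfa rose (0.19 log2, adjusted p = 0.00716 and 0.24 log2, adjusted p = 0.0167) and Ldha no longer passed (-0.12 log2, adjusted p = 0.0723). The difference of the age effects no longer passed for Gpi1 (0.23 log2, adjusted p = 0.109) and Tpi1 (0.26 log2, adjusted p = 0.0546). At 2 months Hk1, Gpi1, Pfkp, Aldoc, Tpi1, Slc2a1, Egln3, Vegfa, Ndrg1, Ero1l and P4ha1 were no longer called.

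**Figure D2:**
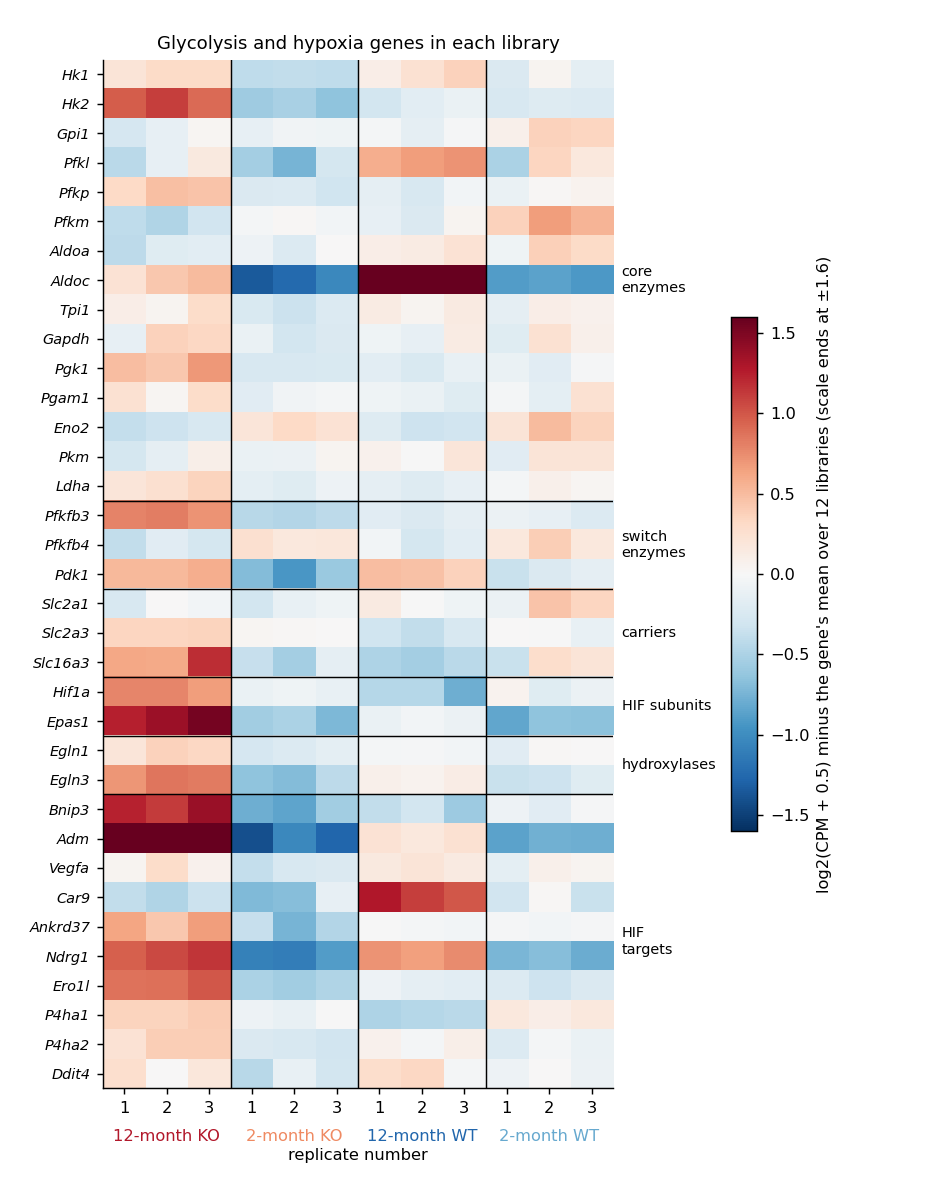
Level of the 35 tested genes in each library, as log2(CPM + 0.5) minus the gene's mean over the 12 libraries (colour scale ending at ±1.6). Genes run down the page by role and libraries across it by group. The 12-month KO columns are the highest for most genes below the core enzymes, while 12-month WT stands out for Aldoc and Car9.

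The oxygen-regulated HIF alpha subunits are the transcription factors at the head of the response. Hif1a (chr12:73907867-73947530, plus strand, mm10) encodes the broadly expressed subunit. It had 802, 803 and 741 CPM in the 12-month KO libraries, 433, 445 and 430.4 CPM in the 2-month KO libraries, 341, 339.6 and 271 CPM in the 12-month WT libraries and 485, 410.1 and 439 CPM in the 2-month WT libraries. All 3 libraries of 12-month KO lay above the other 9, and all 3 of 12-month WT lay below them. Hif1a rose with age in KO by 0.84 ± 0.085 log2 (SE, adjusted p = 1.46e-06) and fell in WT by 0.49 (adjusted p = 0.000235). KO exceeded WT 2.48-fold at 12 months (1.31 log2, adjusted p = 1.49e-08) and did not pass the test at 2 months (-0.02 log2, adjusted p = 0.893). Exons of Hif1a overlap Gm49321 on its own strand and Gm15283 on the other, so reads of these genes may not be told apart.

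Epas1 (chr17:86753864-86833410, plus strand) encodes HIF-2 alpha, known from endothelium and several other tissues. It had 236, 256 and 286 CPM in the 12-month KO libraries, 67, 69.4 and 60.1 CPM in the 2-month KO libraries, 91.6, 95.4 and 92.8 CPM in the 12-month WT libraries and 55.5, 63.3 and 62.2 CPM in the 2-month WT libraries. The libraries of 12-month KO stood highest and those of 12-month WT next, with no overlap between the ages in either genotype. Epas1 rose 3.93-fold in KO (1.98 ± 0.0771 log2, SE, adjusted p = 1.98e-10) and 1.54-fold in WT (0.63 ± 0.0771 log2, SE, adjusted p = 1.08e-05). The difference between the age effects was 1.35 log2, adjusted p = 2.41e-07. The summed endothelial markers were likewise highest in 12-month KO, at 205 to 217 CPM. They overlapped between the ages in WT (85 to 95.3 CPM at 12 months and 82.7 to 89.6 at 2 months), where Epas1 rose. In 2-month KO they were lower, at 55 to 59.4 CPM, while Epas1 did not pass between the genotypes at 2 months. Their part was not tested.

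The HIF prolyl hydroxylases oppose the pathway, and Egln3 is itself a known HIF target. Egln3 (chr12:54178981-54203874, minus strand) had 15.4, 17.1 and 16.7 CPM in the 12-month KO libraries, 5.71, 5.51 and 6.79 CPM in the 2-month KO libraries, 9.82, 9.57 and 10.1 CPM in the 12-month WT libraries and 7.06, 7.2 and 7.97 CPM in the 2-month WT libraries. No library of one age overlapped the other in either genotype. Egln3 rose in KO (1.38 ± 0.0891 log2, SE, adjusted p = 1.84e-08) and in WT (0.39 log2, adjusted p = 0.00221). Egln1, the main oxygen sensor of the family, had 72.3 ± 4.63 CPM in 12-month KO, 50.5 ± 1.94 CPM in 2-month KO, 57.2 ± 0.565 CPM in 12-month WT and 56.7 ± 4.33 CPM in 2-month WT (SD, n = 3 each). Its level rose in KO (0.51 log2, adjusted p = 1.34e-05) and did not pass in WT (0.02 log2, adjusted p = 0.851). At 12 months both hydroxylases were higher in KO, Egln3 by 0.71 log2, adjusted p = 9.87e-06 and Egln1 by 0.33 log2, adjusted p = 0.000521.

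Of the 10 HIF targets outside glycolysis, 9 rose with age in KO and none fell, where 32.9% of all genes rose and 34.2% fell, the median log2 fold change being 0.85. No fall appeared at an unadjusted p under 0.05 or by edgeR or DESeq2 on recovered reads. In WT, 5 rose and 2 fell, with a median of 0.17, and 70% were called against 58% of all genes. At 12 months 7 were higher and 1 lower in KO, with a median difference of 0.47, and 80% were called against 70.2% of all genes.

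Adm (chr7:110627669-110629819, plus strand) encodes adrenomedullin, a secreted peptide that dilates vessels. It had 123, 101 and 129 CPM in the 12-month KO libraries, 12, 15.7 and 13.3 CPM in the 2-month KO libraries, 38.6, 36.8 and 38.9 CPM in the 12-month WT libraries and 17.9, 19 and 18.8 CPM in the 2-month WT libraries. The groups did not overlap, in the order 12-month KO, 12-month WT, 2-month WT and 2-month KO from high to low. Adm rose 8.33-fold in KO (3.06 ± 0.1 log2, SE, adjusted p = 4.25e-11) and 2.02-fold in WT (1.02 ± 0.1 log2, SE, adjusted p = 1.21e-06), the largest rise in KO among the 35 genes. The difference of the age effects was 2.04 log2, adjusted p = 5.83e-08.

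Bnip3 (chr7:138890836-138909506, minus strand) encodes a mitochondrial outer membrane protein that acts in the removal of mitochondria. It had 90.7, 83.9 and 100.5 CPM in the 12-month KO libraries, 22.1, 21.1 and 25.8 CPM in the 2-month KO libraries, 29, 31.1 and 25.4 CPM in the 12-month WT libraries and 36, 33.8 and 37.8 CPM in the 2-month WT libraries. Every 12-month KO library had at least 83.9 CPM and no other library more than 37.8 CPM. Bnip3 rose 3.93-fold in KO (1.97 ± 0.0951 log2, SE, adjusted p = 1.2e-09) and fell in WT (-0.33 log2, adjusted p = 0.00901), a fall that missed the threshold with edgeR (adjusted p = 0.0529) and after correction for GC content (0.148). It was 3.18 times as high in KO as in WT at 12 months and lower in KO at 2 months (-0.63 log2, adjusted p = 0.000565). Of its transcript's stretches of 50 bases, 48.9% occur at another locus, so its value is uncertain.

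Ndrg1, a stress-responsive gene of differentiation, rose in both genotypes. It had 148, 158 and 169 CPM in the 12-month KO libraries, 35.7, 35.1 and 40.5 CPM in the 2-month KO libraries, 125, 120.3 and 129 CPM in the 12-month WT libraries and 45.5, 47.2 and 43.7 CPM in the 2-month WT libraries. Both 12-month groups were far above both 2-month groups, with 12-month KO the higher. The log2 fold change was 2.08 ± 0.0662 log2 (SE, adjusted p = 3.42e-11) in KO and 1.45 ± 0.0662 log2 (SE, adjusted p = 6.03e-10) in WT.

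Ero1l, the oxidase that forms disulphide bonds in the endoplasmic reticulum, rose in KO, while its call in WT depended on the processing. It had 287, 289 and 312 CPM in the 12-month KO libraries, 110.4, 106 and 112 CPM in the 2-month KO libraries, 148, 142 and 139 CPM in the 12-month WT libraries and 135, 125 and 133 CPM in the 2-month WT libraries. In 12-month KO the level was 287 to 312 CPM, and in the other 9 libraries 106 to 148 CPM. Ero1l rose by 1.43 ± 0.0518 log2 (SE, adjusted p = 1e-10) in KO, against 0.12 log2, adjusted p = 0.0549 in WT. In WT it was called higher in 8 of 23 alternatives, among them edgeR, DESeq2 and both other scalings, with changes up to 0.30 log2 (adjusted p = 0.000275).

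Ankrd37, a small ankyrin-repeat protein, had 7.86 ± 0.719 CPM in 12-month KO, 3.4 ± 0.497 CPM in 2-month KO, 4.99 ± 0.0727 CPM in 12-month WT and 4.98 ± 0.0355 CPM in 2-month WT (SD, n = 3 each). It rose in KO (1.1 log2, adjusted p = 6.62e-07) and differed by 0.00 log2, adjusted p = 0.993 in WT. Its exons overlap Lrp2bp and Ufsp2 on the other strand.

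P4ha1 and P4ha2 encode catalytic subunits of the prolyl 4-hydroxylase of collagen. P4ha1 had 516, 519.7 and 537 CPM in the 12-month KO libraries, 384, 374 and 402 CPM in the 2-month KO libraries, 288, 296 and 300.4 CPM in the 12-month WT libraries and 456, 437 and 456 CPM in the 2-month WT libraries. P4ha1 rose in KO (0.44 log2, adjusted p = 1.77e-06) and fell in WT (-0.61 log2, adjusted p = 7.63e-08), so that KO and WT at 12 months lay on opposite sides of their young groups. P4ha2 rose in KO (0.60 log2, adjusted p = 1.71e-06) and by a small amount in WT (0.16 log2, adjusted p = 0.0423). The summed fibroblast markers, collagen genes among them, were 8330 to 9460 CPM in 12-month KO, 9640 to 10700 in 2-month KO, 6570 to 6980 in 12-month WT and 10200 to 11000 in 2-month WT, and their part was not tested.

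Vegfa, the vascular growth factor, had 134 ± 13.3 CPM in 12-month KO, 99.5 ± 5.73 CPM in 2-month KO, 137 ± 3.3 CPM in 12-month WT and 121 ± 10.2 CPM in 2-month WT (SD, n = 3 each). It rose in KO (0.42 log2, adjusted p = 0.000294) and missed the threshold in WT (0.18 log2, adjusted p = 0.059), where 8 of 23 alternatives called a rise, edgeR, DESeq2 and both other scalings among them (adjusted p 0.00184 to 0.036). The difference of its age effects missed the threshold (0.24 log2, adjusted p = 0.0725) and passed in 3 alternatives, without 2-month WT replicate 1 (adjusted p = 0.0154), without 12-month KO replicate 1 (0.0477) and with the replicate block (0.0219). Ddit4, an inhibitor of mTORC1 induced by stress, had 98.6 ± 8.83 CPM in 12-month KO, 73 ± 8.4 CPM in 2-month KO, 102 ± 13.7 CPM in 12-month WT and 85.2 ± 3.2 CPM in 2-month WT (SD, n = 3 each). It rose in KO (0.43 log2, adjusted p = 0.00218), and the difference from WT did not pass (0.18 log2, adjusted p = 0.301).

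Car9, a membrane carbonic anhydrase that acidifies the cell's surroundings and a widely used hypoxia marker, was the target that did not pass with age in KO. It had 0.688, 0.614 and 0.725 CPM in the 12-month KO libraries, 0.46, 0.475 and 0.926 CPM in the 2-month KO libraries, 3.29, 2.86 and 2.6 CPM in the 12-month WT libraries and 0.76, 1.09 and 0.715 CPM in the 2-month WT libraries. The 12-month WT libraries lay above all others, and the remaining groups overlapped. Car9 did not pass with age in KO (0.09 ± 0.161 log2, SE, adjusted p = 0.623) and rose 2.53-fold in WT (1.34 ± 0.161 log2, SE, adjusted p = 8.34e-06), and the difference was -1.25 log2, adjusted p = 0.0004. These were the lowest levels of any tested member, so the added 0.5 CPM reduces the fold changes. The luminal markers were also highest in 12-month WT (3350 to 3480 CPM), which was not tested further.

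**Figure D3:**
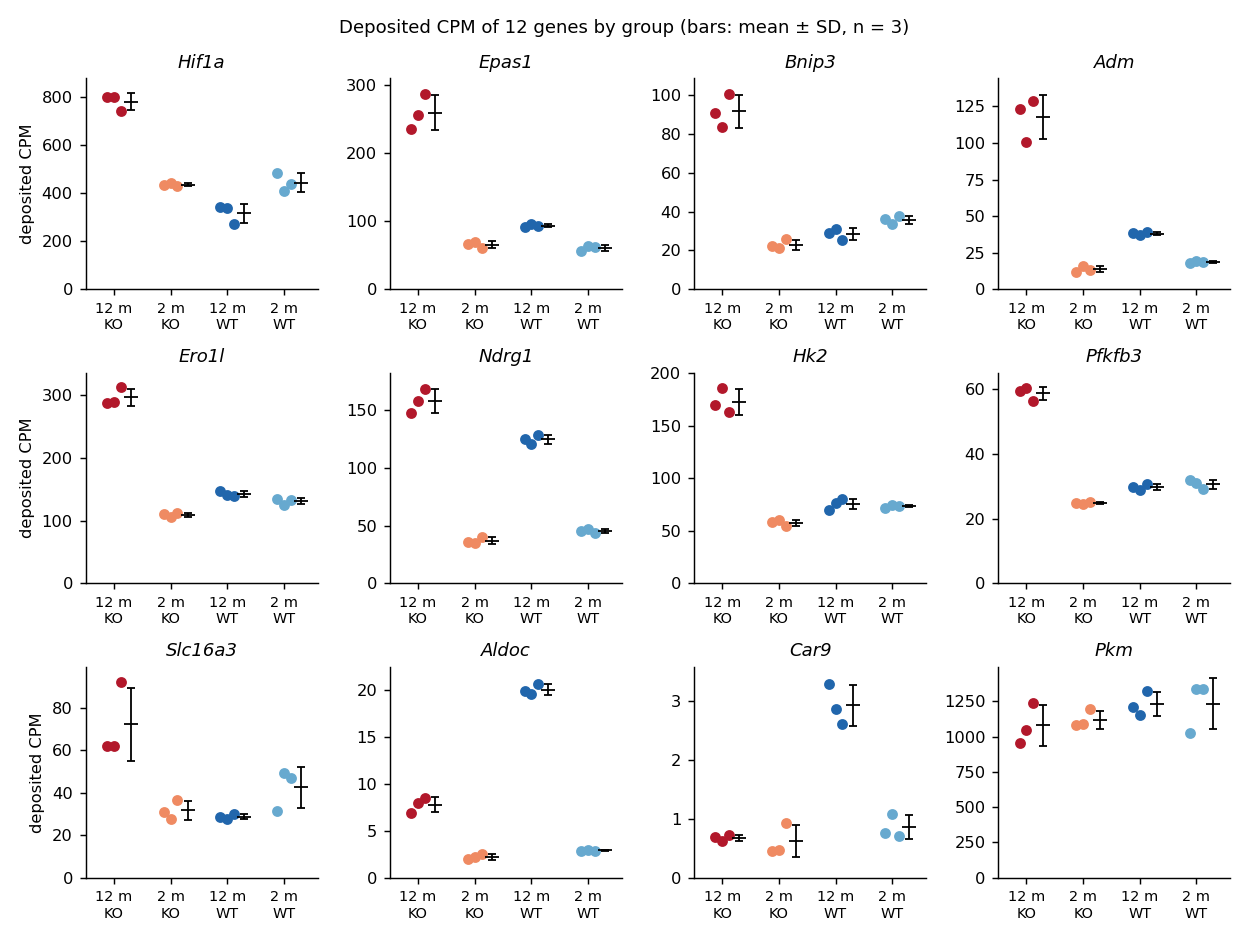
Deposited CPM of 12 genes in each library (points) with the mean and SD of each group (bars, n = 3). Hif1a, Epas1, Bnip3, Adm, Ero1l, Hk2, Pfkfb3 and Slc16a3 stand highest in 12-month KO, Aldoc and Car9 in 12-month WT, and Pkm overlaps between all groups.

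The promoter windows of 33 of the 36 genes were found by symbol in RefSeq (GRCm38.p6), each running from 250 bases before to 50 after a transcript start, and Slc2a3, Epas1 and Ndrg1 were not matched. The windows were searched on both strands for ACGTG and GCGTG, the forms of the HIF core site, where CACGTG counts once on each strand. At least 1 match was held by 38 of the 47 windows of these genes (80.9%), by 9 of the 10 windows of 9 HIF targets (90.0%) and by 20 of 27 of the core enzymes (74.1%), against 43.8% of all 32851 windows. The median number of CpG dinucleotides was 20 in these windows and 7 in all, and the motifs contain a CpG, so the windows differ in base composition as well. The following windows are shown because their genes took different courses with age. Adm and Bnip3 were among the genes that rose most in KO, Ldha rose in KO and fell in WT, Car9 rose in WT, and Pkm, whose first window held no match, passed none of the 5 tests under the same settings as these. They read 5′ to 3′ on the gene's strand with the motif letters in capitals, and a match is a description of the sequence, not a bound site.
Bnip3, chr7:138909457-138909756, minus strand: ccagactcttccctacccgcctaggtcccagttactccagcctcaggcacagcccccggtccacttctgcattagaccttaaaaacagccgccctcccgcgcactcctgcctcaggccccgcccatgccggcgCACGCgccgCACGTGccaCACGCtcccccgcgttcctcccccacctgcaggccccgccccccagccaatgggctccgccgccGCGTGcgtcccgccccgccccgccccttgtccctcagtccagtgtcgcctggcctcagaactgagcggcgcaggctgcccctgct
Adm, chr7:110627407-110627706, plus strand: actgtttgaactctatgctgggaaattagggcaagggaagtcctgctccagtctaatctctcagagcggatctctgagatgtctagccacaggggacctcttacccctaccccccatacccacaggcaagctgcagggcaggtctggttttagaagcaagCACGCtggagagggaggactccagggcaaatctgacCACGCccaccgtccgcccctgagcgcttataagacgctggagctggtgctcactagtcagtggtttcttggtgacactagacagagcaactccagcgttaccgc
Ldha, chr7:46845554-46845853, plus strand: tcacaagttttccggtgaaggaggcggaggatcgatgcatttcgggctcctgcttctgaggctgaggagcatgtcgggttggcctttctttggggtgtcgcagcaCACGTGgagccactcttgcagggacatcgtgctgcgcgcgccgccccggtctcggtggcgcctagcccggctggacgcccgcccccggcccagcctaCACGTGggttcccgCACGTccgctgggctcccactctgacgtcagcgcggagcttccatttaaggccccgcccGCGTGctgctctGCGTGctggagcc
Car9, chr4:43506776-43507075, plus strand: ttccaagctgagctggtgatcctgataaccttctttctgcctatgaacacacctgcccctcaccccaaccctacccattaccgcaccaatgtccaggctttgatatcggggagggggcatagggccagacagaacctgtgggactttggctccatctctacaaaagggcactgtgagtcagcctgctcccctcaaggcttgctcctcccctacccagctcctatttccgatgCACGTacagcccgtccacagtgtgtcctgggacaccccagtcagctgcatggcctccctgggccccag
Pkm, chr9:59656326-59656625, plus strand: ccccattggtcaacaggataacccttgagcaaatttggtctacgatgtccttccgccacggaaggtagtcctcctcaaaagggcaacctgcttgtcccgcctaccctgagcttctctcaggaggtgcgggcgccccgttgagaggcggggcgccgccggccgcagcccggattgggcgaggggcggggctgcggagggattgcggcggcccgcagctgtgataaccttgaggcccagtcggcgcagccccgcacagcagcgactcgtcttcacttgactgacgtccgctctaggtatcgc
The windows held 5 matches for Bnip3, 2 for Adm, 7 for Ldha, 1 for Car9 and 0 for Pkm, whose second window held 2. Beside these counts, the log2 change with age in KO was 1.97 for Bnip3, 3.06 for Adm, 0.41 for Ldha, 0.09 for Car9 and -0.06 for Pkm. These 5 genes were picked and do not stand for the rest. The only window of Tpi1 held 0 matches and Tpi1 rose in KO (0.42 log2). The first window of Pfkm held 3 matches and Pfkm fell in KO (-0.38 log2). A relation between matches and changes was not tested.

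The carriers move glucose in and lactate out. Slc16a3 (chr11:120948484-120959000, plus strand) encodes the lactate exporter MCT4. It had 62.3, 62.2 and 92.3 CPM in the 12-month KO libraries, 31.1, 27.5 and 36.7 CPM in the 2-month KO libraries, 28.6, 27.6 and 30 CPM in the 12-month WT libraries and 31.4, 49.4 and 46.9 CPM in the 2-month WT libraries. All 12-month KO libraries were above the others, with replicate 3 well above its 2 mates. Slc16a3 rose 2.23-fold in KO (1.16 ± 0.175 log2, SE, adjusted p = 6.12e-05), and the difference from the age effect in WT was 1.69 ± 0.247 log2 (SE, adjusted p = 6.25e-05).

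Slc2a3, the high-affinity glucose carrier GLUT3, had 40, 39.9 and 40.3 CPM in the 12-month KO libraries, 32, 31.7 and 31.4 CPM in the 2-month KO libraries, 25, 23.7 and 26.1 CPM in the 12-month WT libraries and 31.5, 31.2 and 28.9 CPM in the 2-month WT libraries. Slc2a3 rose in KO (0.33 log2, adjusted p = 0.000181) and fell in WT (-0.29 log2, adjusted p = 0.000745), and was 1.59 times as high in KO at 12 months. Slc2a1, the widely expressed carrier GLUT1, passed no test with age. It had 87.9, 105 and 101 CPM in the 12-month KO libraries, 84.9, 96.3 and 99.4 CPM in the 2-month KO libraries, 116, 104 and 100.1 CPM in the 12-month WT libraries and 97.9, 144 and 133 CPM in the 2-month WT libraries. Its groups overlapped in all 4 comparisons of age and genotype, and Slc2a1 passed neither test with age (0.07 log2, adjusted p = 0.634 in KO and -0.21 log2, adjusted p = 0.156 in WT). Without 2-month WT replicate 1, the lowest of its group, its fall in WT passed (-0.38 log2, adjusted p = 0.00255). Its lower level in KO at 2 months (-0.40 log2, adjusted p = 0.0412) was lost when any of 8 libraries was left out, with adjusted p from 0.0507 to 0.166.

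The switch enzymes set how fast glucose enters glycolysis and whether pyruvate enters mitochondria. Pfkfb3 (chr2:11471431-11553929, minus strand) makes fructose 2,6-bisphosphate, the strongest activator of phosphofructokinase. It had 59.2, 60.2 and 56.3 CPM in the 12-month KO libraries, 24.8, 24.4 and 25.2 CPM in the 2-month KO libraries, 29.8, 28.8 and 30.7 CPM in the 12-month WT libraries and 31.8, 30.8 and 29.1 CPM in the 2-month WT libraries. In 12-month KO it was at 56.3 to 60.2 CPM, and in the other 9 libraries at 24.4 to 31.8 CPM. Pfkfb3 rose 2.33-fold in KO (1.22 ± 0.0561 log2, SE, adjusted p = 7.55e-10) and differed by -0.04 log2, adjusted p = 0.601 in WT. Pfkfb4, a related enzyme with both kinase and phosphatase activity, went the other way. It had 16.5 ± 1.22 CPM in 12-month KO, 23.3 ± 0.773 CPM in 2-month KO, 18.1 ± 1.57 CPM in 12-month WT and 24.1 ± 2.35 CPM in 2-month WT (SD, n = 3 each) and fell in KO (-0.49 log2, adjusted p = 0.000255) and in WT (-0.41 log2, adjusted p = 0.00125), with no difference passing between the age effects (-0.08 log2, adjusted p = 0.593).

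Pdk1 inactivates pyruvate dehydrogenase and so keeps pyruvate out of the citric acid cycle. It had 59.7, 59.6 and 62.4 CPM in the 12-month KO libraries, 25.6, 21.5 and 27.4 CPM in the 2-month KO libraries, 58.9, 57.7 and 53.7 CPM in the 12-month WT libraries and 32.3, 35.4 and 37.5 CPM in the 2-month WT libraries. Pdk1 rose in KO (1.28 ± 0.0843 log2, SE, adjusted p = 2.33e-08) and less in WT (0.69 ± 0.0843 log2, SE, adjusted p = 1.03e-05), and the difference passed (0.59 log2, adjusted p = 0.0009). The genotypes differed at 2 months (-0.50 log2, adjusted p = 0.00143) and did not pass the test at 12 months (0.09 log2, adjusted p = 0.337), although their libraries did not overlap.

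The core enzymes carry out the steps between glucose and lactate. In KO 9 of the 15 tested rose with age and 2 fell, with a median of 0.40 log2, and the share called was 73.3%, near the 67% of all genes. In WT 3 rose and 4 fell (median -0.07), a share of 46.7% against 58%. At 12 months 5 were higher and 4 lower in KO than in WT (median 0.04), a share of 60% against 70.2%. This split depended on the processing. With a correction for GC content, Hk1, Tpi1, Gapdh, Eno2 and Pkm were also called higher in KO at 12 months. Aldoa and Pfkm were then no longer called lower.

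At the first step hexokinases phosphorylate glucose. Hk2 (chr6:82725027-82774454, minus strand), the inducible hexokinase, had 169, 186 and 163 CPM in the 12-month KO libraries, 58, 60.1 and 55 CPM in the 2-month KO libraries, 70.1, 76.4 and 80.1 CPM in the 12-month WT libraries and 72.1, 74.7 and 74.1 CPM in the 2-month WT libraries. Each 12-month KO library had at least 163 CPM and each other library at most 80.1 CPM. Hk2 rose 2.97-fold in KO (1.57 ± 0.064 log2, SE, adjusted p = 2.79e-10) and was 2.28 times as high in KO as in WT at 12 months. Hk1, the broadly expressed hexokinase, had 193 ± 7.52 CPM in 12-month KO, 120.5 ± 0.474 CPM in 2-month KO, 188 ± 17 CPM in 12-month WT and 147 ± 14.6 CPM in 2-month WT (SD, n = 3 each). Hk1 rose in both genotypes, by 0.68 log2, adjusted p = 3.29e-06 in KO and 0.35 log2, adjusted p = 0.00116 in WT. Hk1 overlaps the antisense gene Hk1os.

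Gpi1, which turns glucose 6-phosphate into fructose 6-phosphate, did not pass with age in KO (-0.04 log2, adjusted p = 0.706) and fell in WT (-0.33 log2, adjusted p = 0.00412). Of its 50-base stretches 19.6% occur elsewhere. Phosphofructokinases, of which Pfkp, Pfkm and Pfkl are the platelet, muscle and liver forms, commit sugar to glycolysis. Pfkp had 195, 217 and 214 CPM in the 12-month KO libraries, 133, 134 and 125 CPM in the 2-month KO libraries, 141, 130 and 151 CPM in the 12-month WT libraries and 145, 158 and 162 CPM in the 2-month WT libraries. Pfkp rose in KO (0.67 log2, adjusted p = 1.13e-06) with no overlap between the ages, and missed the threshold in WT (-0.14 log2, adjusted p = 0.0931). The fall in WT passed without 2-month WT replicate 1 (adjusted p = 0.0339) and without 12-month WT replicate 3 (adjusted p = 0.0312). Pfkm fell in KO (-0.38 log2, adjusted p = 0.0017) and in WT (-0.63 log2, adjusted p = 2.94e-05), with group means of 25.1 ± 1.64 CPM in 12-month KO, 32.7 ± 0.802 in 2-month KO, 30.8 ± 3.07 in 12-month WT and 48.1 ± 4.99 in 2-month WT (SD, n = 3 each). The skeletal muscle markers were 825 to 1560 CPM in 12-month KO and 273 to 322 CPM in 2-month KO, the opposite order to Pfkm, and 187 to 208 CPM in 12-month WT and 961 to 1130 CPM in 2-month WT, the same order, and their part was not tested. Pfkl had 76.2, 94.2 and 114 CPM in the 12-month KO libraries, 70.7, 61.4 and 84.3 CPM in the 2-month KO libraries, 154, 164 and 169 CPM in the 12-month WT libraries and 72.6, 131 and 116 CPM in the 2-month WT libraries. The 12-month WT libraries were the highest and the spread within the other groups was wide. Pfkl rose in WT (0.65 log2, adjusted p = 0.0105), and without 2-month WT replicate 1 the rise was 0.40 log2 (adjusted p = 0.0304). It was lower in KO than in WT at 12 months (-0.79 log2, adjusted p = 0.00238).

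Aldolases split the doubly phosphorylated sugar. Aldoc (chr11:78324198-78326760, plus strand), known from brain, had 6.88, 7.99 and 8.45 CPM in the 12-month KO libraries, 1.97, 2.16 and 2.57 CPM in the 2-month KO libraries, 19.9, 19.5 and 20.6 CPM in the 12-month WT libraries and 2.87, 2.97 and 2.84 CPM in the 2-month WT libraries. The 12-month WT libraries were well above those of 12-month KO, and both 12-month groups lay above every 2-month library. Aldoc rose 3.03-fold in KO (1.6 ± 0.0996 log2, SE, adjusted p = 1.32e-08) and 6.04-fold in WT (2.59 ± 0.0996 log2, SE, adjusted p = 1.04e-10), and the difference was -0.99 log2, adjusted p = 4.63e-05. Luminal markers were higher in 12-month WT as well (3350 to 3480 CPM against 279 to 350 in 2-month WT). In KO, where Aldoc also rose, they overlapped between the ages (418 to 439 CPM at 12 months and 402 to 470 at 2 months). Their part was not tested. Aldoa, the aldolase of most tissues, had 539, 629 and 644 CPM in the 12-month KO libraries, 679, 617 and 727 CPM in the 2-month KO libraries, 773, 787 and 844 CPM in the 12-month WT libraries and 690, 942 and 894 CPM in the 2-month WT libraries. The ages overlapped in both genotypes, and Aldoa passed neither age test. It was lower in KO than in WT at 12 months (-0.41 log2, adjusted p = 0.00374), a call that missed the threshold after GC correction (adjusted p = 0.0776).

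The lower steps yield energy. Tpi1, which interconverts the triose phosphates, rose in KO (0.42 log2, adjusted p = 0.00033) and did not pass in WT (0.09 log2, adjusted p = 0.319). Pgk1, the first enzyme of the pathway to make ATP, had 52.6, 50.4 and 60.5 CPM in the 12-month KO libraries, 31.1, 31.1 and 31.3 CPM in the 2-month KO libraries, 33.1, 31.3 and 34.2 CPM in the 12-month WT libraries and 34.5, 32.9 and 36.8 CPM in the 2-month WT libraries. In 12-month KO it had 50.4 to 60.5 CPM, and in the other 9 libraries 31.1 to 36.8 CPM. Pgk1 rose in KO (0.79 log2, adjusted p = 4.69e-07) and did not pass in WT (-0.08 log2, adjusted p = 0.378). Gapdh, which makes NADH, and Pgam1, a mutase, rose in KO by 0.40 log2, adjusted p = 0.0199 and 0.28 log2, adjusted p = 0.0252, the calls that rested on single libraries above. Eno2, the enolase known from neurons, fell in KO (-0.57 log2, adjusted p = 1.76e-05) and in WT (-0.64 log2, adjusted p = 6.94e-06), with 29.9 ± 1.29 CPM in 12-month KO, 44.6 ± 2.13 CPM in 2-month KO, 30.7 ± 1.56 CPM in 12-month WT and 48.2 ± 4.86 CPM in 2-month WT (SD, n = 3 each).

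Pkm and Ldha close the pathway. Pkm, pyruvate kinase, passed none of the 5 tests with all libraries, the deposited scaling and no replicate block, and its direction depended on the processing. It had 957, 1046 and 1242 CPM in the 12-month KO libraries, 1079, 1088 and 1193 CPM in the 2-month KO libraries, 1213, 1156 and 1326 CPM in the 12-month WT libraries and 1024, 1338 and 1336 CPM in the 2-month WT libraries. The groups overlapped, 12-month KO replicate 1 and 2-month WT replicate 1 being the lowest. With quantile scaling Pkm fell with age in KO (-0.32 log2, adjusted p = 0.0144), rose in WT (0.27 log2, adjusted p = 0.0421) and was lower in KO at 12 months (-0.62 log2, adjusted p = 0.000106), and the difference of the age effects passed (-0.59 log2, adjusted p = 0.00381). With the GC correction it rose with age in KO (0.13 log2, adjusted p = 0.0336) and was higher in KO at 12 months (0.15 log2, adjusted p = 0.0187). Without 12-month KO replicate 3 it was lower in KO at 12 months (-0.30 log2, adjusted p = 0.0269), as with the replicate block (-0.19 log2, adjusted p = 0.0384). Ldha (chr7:46845804-46855627, plus strand), the lactate dehydrogenase subunit that favours lactate, had 477, 499 and 535 CPM in the 12-month KO libraries, 374, 365 and 395 CPM in the 2-month KO libraries, 376, 362 and 382 CPM in the 12-month WT libraries and 408, 441 and 425 CPM in the 2-month WT libraries. The 12-month KO libraries were above all others, and 12-month WT lay below 2-month WT without overlap. Ldha rose in KO (0.41 ± 0.0549 log2, SE, adjusted p = 1.93e-05) and fell in WT (-0.19 ± 0.0549 log2, SE, adjusted p = 0.0108), and the fall in WT was not called after rescaling over all 12 libraries, with edgeR or with DESeq2 (adjusted p 0.0723 to 0.181).

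**Figure D4:**
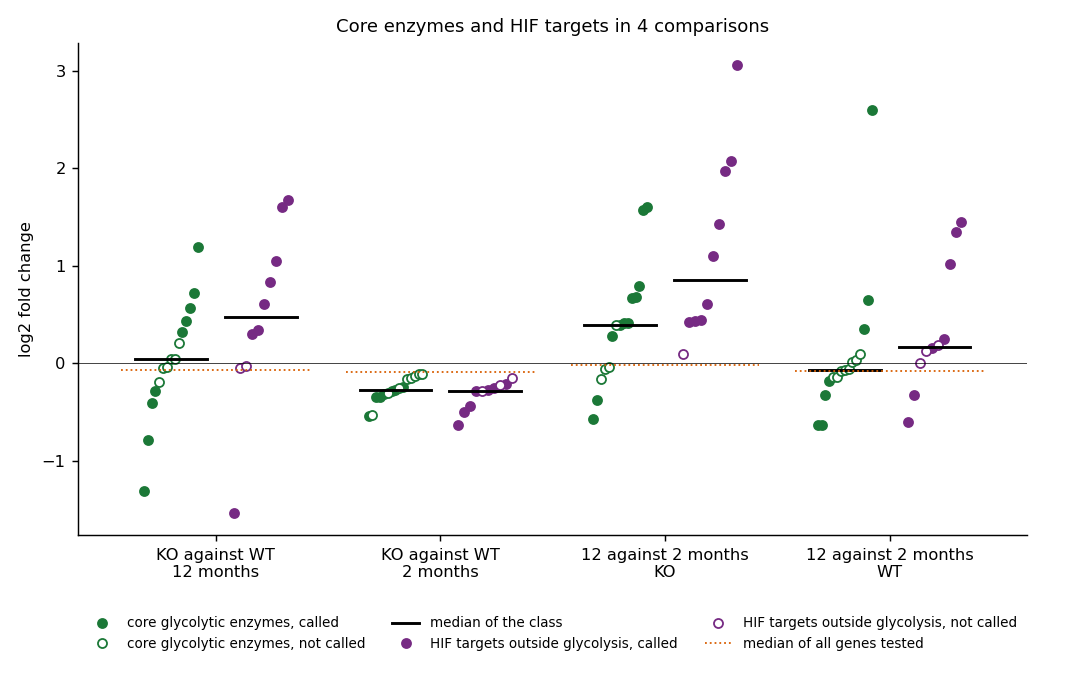
Log2 fold changes of the 15 core enzymes tested (green) and the 10 HIF targets outside glycolysis (purple) in 4 comparisons. Filled points passed limma's test, open points did not, black bars are class medians and dotted lines the median of all genes. With age in KO the medians were 0.40 and 0.85, and at 2 months both lay near -0.28.

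The core enzymes and the HIF targets are set side by side as a description, with no test of the difference between the classes. The median difference of the age effects was 0.32 log2 for the core enzymes and 0.84 for the HIF targets, against 0.02 over all genes. The difference passed as positive for 8 and as negative for 1 of the 15 core enzymes. For the 10 HIF targets these counts were 7 and 1. The shares called were 60% and 80%, against 57.7% of all genes, so the core share was near that of the whole table. With age in KO, 5 of the 10 HIF targets and 2 of the 15 core enzymes rose by more than 1 log2. Of all 13961 genes tested, 1112 did. The core transcripts had a median GC content of 54.1% and the HIF targets 51.0%, against 50.1% over all genes tested. Across 13149 genes the log2 fold change went with GC content at a Spearman rho of -0.31 for genotype at 12 months, -0.211 at 2 months, -0.134 for age in KO and 0.154 for age in WT, genes that share libraries and are not independent. After a correction for GC content, chosen after seeing the data, 25 of the 35 genes were higher and 3 lower in KO at 12 months. Without it these counts were 19 and 5. All genes whose call changed were core enzymes except Ddit4, a HIF target. The median difference over all genes was -0.04 log2 with the correction and -0.07 without it.

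The highest group mean fell in 12-month KO for 23 of the 35 genes, in 12-month WT for Pfkl, Aldoc, Vegfa, Car9 and Ddit4, and in 2-month WT for Gpi1, Pfkm, Aldoa, Eno2, Pkm, Pfkfb4 and Slc2a1. No gene of the 35 had its highest mean in 2-month KO. All genes were not counted by their highest group, so these counts have no matching background. They also depend on the scaling of the columns.

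Levels per kilobase of all annotated exons were used to compare genes, and shares within a library do not depend on the scaling between libraries. Both depend on the length used, and values per kilobase of 1 annotated transcript, computed after seeing the data, are given for the hexokinases, phosphofructokinases and glucose carriers. Over the 12 libraries Aldoa (251 CPM per kb), Pkm (233), Tpi1 (127) and Ldha (127) were the highest core enzymes by mean level per length. Hk2 made up 56.1% ± 1.73 of the per-length level of Hk1 and Hk2 in 12-month KO, 40.6% ± 0.986 in 2-month KO, 36.5% ± 0.595 in 12-month WT and 41.7% ± 1.99 in 2-month WT (SD, n = 3 each). Per transcript length the share was 41% ± 1.69 in 12-month KO, 27.1% ± 0.806 in 2-month KO, 23.8% ± 0.465 in 12-month WT and 28% ± 1.64 in 2-month WT, so which hexokinase is the higher depends on the length used, while 12-month KO had the highest Hk2 share by either. Pfkp made up 41.9% ± 2.71 of the 3 phosphofructokinases in 12-month KO, 32.2% ± 2.34 in 2-month KO, 23.8% ± 1.01 in 12-month WT and 27.9% ± 3.23 in 2-month WT. Per transcript length it made up 59.7% ± 2.98 in 12-month KO, 50.7% ± 3.16 in 2-month KO, 38.5% ± 1.46 in 12-month WT and 45.6% ± 4.5 in 2-month WT, the same order of groups. Pfkfb3 made up 69.6% ± 1.55 of the sum with Pfkfb4 in 12-month KO, 40.7% ± 0.822 in 2-month KO, 51.5% ± 1.87 in 12-month WT and 45% ± 2.46 in 2-month WT. Epas1 made up 25.9% ± 2.72 of the sum with Hif1a in 12-month KO, 13.7% ± 0.721 in 2-month KO, 23.8% ± 2.38 in 12-month WT and 12.6% ± 1.66 in 2-month WT, so its share was higher at 12 months in both genotypes. Slc2a3 made up 16.5% ± 1.33 of the sum with Slc2a1 in 12-month KO, 14.1% ± 1.12 in 2-month KO, 10.2% ± 0.889 in 12-month WT and 10.8% ± 2.31 in 2-month WT, and per transcript length 25.2% ± 1.81 in 12-month KO, 21.9% ± 1.58 in 2-month KO, 16.2% ± 1.31 in 12-month WT and 17.1% ± 3.37 in 2-month WT. Aldoc never exceeded a share of 2.24% with Aldoa in any library. These shares were chosen after the values were known and carry no test.

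Several core enzymes share sequence with copies elsewhere in the mouse genome, and their values are uncertain because the authors' counting could have split or dropped such reads. Of the 50-base stretches of the transcript, the share also present at another locus was 82.5% for Gapdh, 72.2% for Eno1, 68.0% for Pgk1, 48.9% for Bnip3, 41.5% for Pgam1, 30.5% for Pkm, 19.6% for Gpi1, 16.6% for Ldha and 13.5% for Aldoa. Gapdh stretches recurred at 222 loci, of which 213 are annotated as pseudogenes, and most Eno1 stretches recurred in Eno1b. The levels per length were 6.88 CPM per kb for Gapdh, 17.1 for Pgk1, 9.87 for Pgam1 and 0.0488 for Eno1, far under those of Aldoa, Pkm, Tpi1 and Ldha in the same pathway. Per kilobase of transcript they were 20 for Gapdh, 21 for Pgk1, 11 for Pgam1 and 0.13 for Eno1, against 218 to 479 for those 4 genes. Low levels were not limited to genes with shared stretches. Aldoc and Pfkm, with 0% shared, had 2.52 and 10.2 CPM per kb of exons and 2.95 and 11.9 per kb of transcript. Eno1, an enolase of most tissues, had 0.204, 0.118 and 0.522 CPM in the 12-month KO libraries, 0.216, 0.173 and 0.206 CPM in the 2-month KO libraries, 0.318, 0.457 and 0.229 CPM in the 12-month WT libraries and 0.147, 0.226 and 0.337 CPM in the 2-month WT libraries. Its libraries overlapped in all comparisons and its mean was under the filter of 0.5 CPM, which left it as the one gene of the 36 without a test. How reads that map to several loci were counted is not given in the sources used here. In all, 13 of the 36 genes overlap an exon of a gene on the other strand and 3 one on the same strand, and the strand setting of the counting is not given either.

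**Figure D5:**
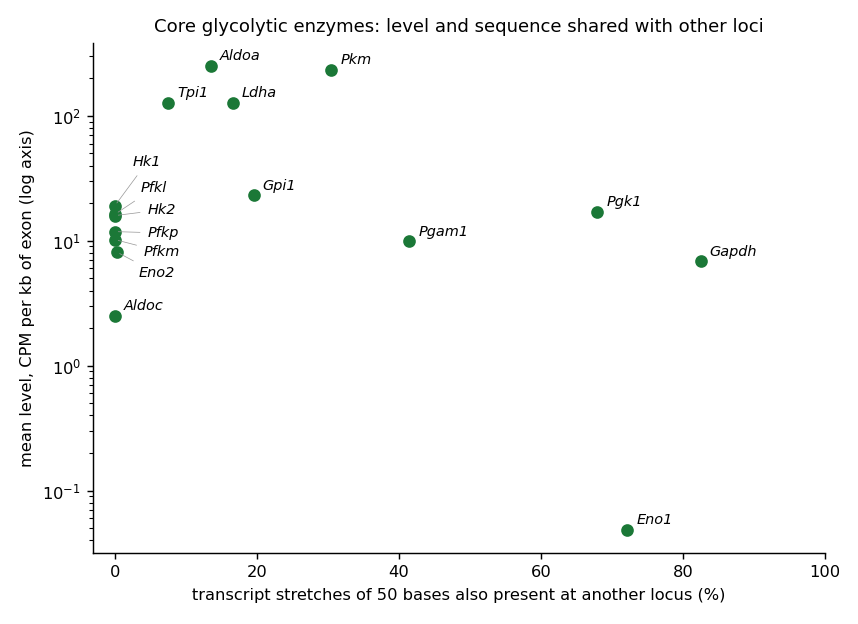
Mean level of the 16 core enzymes over the 12 libraries, in CPM per kb of exon on a log axis, against the share of the transcript's 50-base stretches that also occur at another locus. Gapdh, Eno1, Pgk1 and Pgam1 combine large shared parts with levels far under those of Aldoa, Pkm, Tpi1 and Ldha. Aldoc and Pfkm, with 0% shared, were also low (2.52 and 10.2), and Pkm was high (233) with 30.5% shared.

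Related genes off the list were followed on a pair of lists of the same pathways. Of 41 tested genes of other glycolytic, pyruvate and pentose phosphate steps, 16 rose and 12 fell with age in KO, and 11 rose and 15 fell in WT. The shares called, 68.3% in KO and 63.4% in WT, were near the 67% and 58% of all genes. At 12 months 13 were higher and 19 lower in KO (78% called, all genes 70.2%), and at 2 months 1 and 9 (24.4%, all genes 16.1%). The difference of the age effects was positive for 17 and negative for 13 (73.2%, all genes 57.7%). The genes with the smallest adjusted p included Pdk4, another inhibitor of pyruvate dehydrogenase, which rose in KO (2.62 log2, adjusted p = 1.54e-11) and in WT (3.25 log2, adjusted p = 2.14e-12) and averaged 41.4 CPM in 12-month KO, 6.33 in 2-month KO, 129 in 12-month WT and 13.1 in 2-month WT. Slc16a1, the lactate carrier MCT1, rose in KO (0.80 log2, adjusted p = 2.82e-08) and fell in WT (-1.0 log2, adjusted p = 3.02e-09), as its relative Slc16a3 did. G6pdx, the first enzyme of the pentose phosphate pathway, rose in KO (0.64 log2, adjusted p = 2.74e-08) and in WT (0.31 log2, adjusted p = 3.62e-05). Hk3, a hexokinase known from leukocytes, fell in KO (-1.86 log2, adjusted p = 7.36e-07) and in WT (-0.73 log2, adjusted p = 0.00285), and the leukocyte markers summed to 221 to 409 CPM in 12-month KO against 759 to 849 CPM in 2-month KO, and to 687 to 771 CPM in 12-month WT against 922 to 1190 CPM in 2-month WT, which was not tested further. At 12 months Gpd1 and Taldo1, of glycerol phosphate and pentose phosphate metabolism, were lower in KO (-2.54 log2, adjusted p = 4.01e-09 and -2.01 log2, adjusted p = 2.06e-08). Eno3, the muscle enolase, did not pass in KO (0.11 log2, adjusted p = 0.573) and fell in WT (-2.15 log2, adjusted p = 8.48e-08), with muscle markers of 825 to 1560 CPM in 12-month KO and 273 to 322 CPM in 2-month KO, and of 187 to 208 CPM in 12-month WT and 961 to 1130 CPM in 2-month WT, also not tested.

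Of 40 tested genes of the second list, other parts of the HIF pathway, 25 rose and 5 fell with age in KO, and 13 rose and 16 fell in WT. The shares called were 75% in KO and 72.5% in WT, against 67% and 58% of all genes. At 12 months 20 were higher and 10 lower in KO (75% called, all genes 70.2%), and at 2 months 1 and 13 (35%, all genes 16.1%). The difference of the age effects was positive for 24 and negative for 5 (72.5%, all genes 57.7%). Its median log2 fold change was 0.43 with age in KO and -0.03 in WT. Bhlhe40, a transcriptional repressor, and Igfbp3, a binding protein for insulin-like growth factors, rose in KO by 2.03 log2, adjusted p = 1.87e-11 and 2.12 log2, adjusted p = 6.78e-11. In WT Bhlhe40 rose (0.22 log2, adjusted p = 0.00642) and Igfbp3 fell (-0.27 log2, adjusted p = 0.00665). Vldlr, a lipoprotein receptor, was higher in KO at 12 months (1.61 log2, adjusted p = 2.87e-11), rose with age in KO (1.17 log2, adjusted p = 5.46e-10) and fell in WT (-0.76 log2, adjusted p = 2.72e-08). Vhl, which targets hydroxylated HIF for degradation, fell slightly in KO (-0.28 log2, adjusted p = 0.00291) and in WT (-0.22 log2, adjusted p = 0.0148). Edn1 rose in KO (1.11 log2, adjusted p = 1.5e-07) and in WT (1.09 log2, adjusted p = 1.88e-07), and the difference did not pass (0.02 log2, adjusted p = 0.889). Pdgfb rose in KO (0.44 log2, adjusted p = 0.00495) and in WT (2.01 log2, adjusted p = 6.98e-09), and the difference passed (-1.57 log2, adjusted p = 3.22e-06). Stc1 did not pass in KO (-0.25 log2, adjusted p = 0.0512) and fell in WT (-1.95 log2, adjusted p = 3.84e-09).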

How the data were processed

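Per the labels' protocols, PicoPure kits served for RNA and TruSeq Stranded total RNA kits for sequencing. The submitters' processing notes name TopHat2 2.1.0, Bowtie2 2.2.4, HTSeq 0.6.1p1, SAMtools 0.1.18 and the mm10 build. Not given in the sources used here: annotation, strand setting, and what was done with reads of several loci. Per the file headers, the deposited signal is CPM after edgeR's TMM scaling (trimmed mean of M-values). Dividing each value by the CPM of 1 read gave whole reads within 0.1 for 100% of the values above 0. Scaling factors of both KO groups equalled those of a TMM run on the 6 KO libraries, those of 12-month WT a run on both 12-month groups, and those of 2-month WT no run tried.

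All 12 libraries entered 1 limma 3.58.1 model (R 4.3.3, mean-variance trend, 8 residual degrees of freedom) of log2(CPM + 0.5), restricted to 13961 genes whose mean reached 0.5 CPM. P-values were adjusted over all these genes by the Benjamini-Hochberg method within each of 5 comparisons, with a threshold of 0.05, and each fold change is on the log2(CPM + 0.5) scale, which understates changes of low genes. Alternatives were pseudocounts of 0.1 and 1, no filter, a filter at a mean of 2, fitting only the groups compared, TMM over all 12 libraries, quantile scaling, edgeR 4.0.16 and DESeq2 1.42.0 on recovered reads, a replicate block, leaving out each library, and, added after seeing the data, a GC correction and levels per transcript length. The limma step was tested on simulated data. Transcript lengths, GC content and shared 50-base stretches came from GENCODE vM21 (GRCm38, the assembly of mm10), which matched 36 of 36 genes, and coordinates are 1-based. The members and all gene lists were chosen with earlier results of these data known. All 36 members are accounted for by name. Of the lists of other pathway genes, up to 3 genes per direction and comparison with the smallest adjusted p were open to naming, and 1 such gene is not reported here.

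On recovered reads edgeR called 3898 genes higher and 3766 lower with age in WT, 4640 and 4693 with age in KO, 474 and 940 for genotype at 2 months, 4464 and 5308 at 12 months, and 3728 and 4392 for the interaction.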

Additional observations from a re-analysis of the deposited data

Results flagged for a closer look

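For 25 genes the change from 2 to 12 months differed between KO and WT by limma's interaction test (Benjamini-Hochberg adjusted p under 0.05), a test that 57.7% of all genes passed. Each value is a log2 difference, the KO effect of age less the WT effect. Among the HIF subunits and hydroxylases the differences were 1.33 for Hif1a, 1.35 for Epas1, 0.50 for Egln1 and 1.0 for Egln3. Among the HIF targets they were 2.31 for Bnip3, 2.04 for Adm, 1.31 for Ero1l, 1.1 for Ankrd37, 1.05 for P4ha1, 0.63 for Ndrg1 and 0.45 for P4ha2, and -1.25 for Car9, which rose in WT. Carriers and switch enzymes gave 1.69 for Slc16a3, 0.62 for Slc2a3, 1.26 for Pfkfb3 and 0.59 for Pdk1. Among the core enzymes the values were 1.54 for Hk2, 0.87 for Pgk1, 0.81 for Pfkp, 0.60 for Ldha, 0.43 for Pgam1, 0.33 for Hk1, 0.32 for Tpi1 and 0.29 for Gpi1, and -0.99 for Aldoc. Of these 25 calls, 19 were the same under every alternative that tested the gene (22 for Car9 and 23 for the rest). Those of Hk1, Gpi1, Tpi1, Pgam1, Ldha and P4ha2 were not.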

How the results depend on the processing

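Over 23 alternatives, 4020 member values were recomputed. Of these, 3769 kept direction and side of the threshold, 176 fell below it, 68 passed it anew and 7 changed sign with a call. Some calls held under every alternative that tested the gene. These numbered 27 of 29 for age in KO, 15 of 21 for age in WT, 20 of 24 for genotype at 12 months, 4 of 18 at 2 months and 19 of 25 for the interaction. The cause of the changes below was not tested unless named.

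Genotype at 2 months moved most. All genes higher and lower numbered 426 and 1032 with TMM over all 12 libraries, 523 and 799 with quantile scaling, 474 and 940 with edgeR, 529 and 1198 with DESeq2 and 797 and 1289 with the GC correction. Members lower numbered 7, 4, 5, 9 and 10 in the same order, with 1 higher after the GC correction, where the HIF-target median was -0.18. Leaving out 1 library gave 1233 to 2738 genes and 9 to 23 members lower. A filter at a mean of 2 removed Car9, so that the HIF-target medians became 1.10 for age in KO, 0.60 at 12 months and 1.05 for the interaction, with 1 member lower. With quantile scaling, members lower numbered 5 for age in KO, 8 at 12 months and 4 for the interaction, HIF-target medians were 0.30 for age in WT, 0.36 at 12 months and 0.52 for the interaction, and the core median at 12 months was -0.14. Quantile scaling also changed the sign of Ldha with age in WT (0.033) and of Tpi1 at 12 months (-0.26) and in the interaction (-0.094). The GC correction changed that of Pkm with age in KO (0.13) and at 12 months (0.15), and of Eno2 (0.15) and Ddit4 (0.31) at 12 months, where 3 members were lower.

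Replicate numbers were not treated as pairs in the main fit, and the labels do not say whether they mark pairs. Same-numbered libraries of different groups correlated at -0.163 to 0.589 (18 pairs, 8 over 0.1). They matched best with their own number in 19 of 36 cases. These values do not settle whether the numbers are shared between groups. With the replicate block, 166 member values were unchanged, 0 fell below the threshold and 9 passed it anew, with 21 members lower at 2 months. Rescaling over all 12 libraries moved the median of all genes by less than 0.1 log2 in each comparison. The fewest reads of any member were those of Eno1 and Car9.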
